A study of Mus musculus with 8 samples.

Results

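The genes described here are 38 members of sterol and fatty acid synthesis, listed by name: enzymes of the mevalonate and sterol arms, the proteins that control them, enzymes that make, lengthen, desaturate and activate fatty acids, and 3 sterol carriers. All 38 had a row among the 23413 gene rows of the deposited table, and all 38 passed the filter on low values that left 11415 genes to be tested. Their transcripts were counted in 8 mouse RNA sequencing libraries, from wild-type microglia (n = 2), repopulating microglia (n = 3) and bone-marrow macrophages (n = 3). Microglia are macrophages that live in the brain. Repopulating microglia are, by the title of the series, cells that renew this population, and the series design sets them beside the other two populations. DTR is the strain given for the wild-type samples and DTRmg the strain given for the other samples, so strain label and population cannot be told apart in a comparison with wild type. A single treatment text stands on all 8 samples, controls included. It gives tamoxifen, 2 mg, subcutaneously at 12 and 14 days after birth, and for depletion of microglia 500 ng diphtheria toxin into the peritoneum, 3 times, with a day between injections. Cells were enriched from digested brain on a density gradient and the microglia were sorted by flow cytometry, per the protocol text on all samples. Age at collection, the promoter behind the toxin receptor and the organ from which the bone-marrow macrophages were taken are not given in the labels. Neither do these say whether replicates were separate animals. Xist, the transcript of the inactive X chromosome, stood at 0.568 in bone-marrow replicate 1 and at 567 and 538 in replicates 2 and 3. In repopulating replicates 1 and 2 it stood at 706 and 0. The replicates of these groups were therefore not all from a single animal. Whether the wild-type replicates were is not known. Each p-value reflects no more than how these samples vary, which may be partly technical.

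Cells make cholesterol from acetyl-CoA by way of mevalonate, squalene and lanosterol, and make fatty acids from the same acetyl-CoA by way of malonyl-CoA. Both routes are switched on by the SREBP transcription factors, encoded by Srebf1 and Srebf2, which the escort protein Scap carries from the endoplasmic reticulum to the Golgi for cleavage. When sterols are plentiful, Insig1 and Insig2 hold Scap back. In the brain, cholesterol does not arrive with blood lipoproteins and is made locally, largely by glia, and macrophages that take up lipid-rich debris carry sterols out of lysosomes with Npc2 and Npc1.

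Reads counted in genes ran from 5918944 to 12476427 per library. Levels below are normalised counts, that is, gene counts scaled by the authors with 1 factor a library, and log2 differences are on the log2(normalised count + 1) scale, with a standard error (SE). A gene is called when its limma p-value, adjusted by Benjamini-Hochberg over all 11415 genes, is under 0.05. Summed levels of the 9 microglial markers were 400964 to 440443 in wild-type, 254766 to 295201 in repopulating and 94846 to 107097 in bone-marrow libraries, so these markers were present in all 3 populations. Repopulating replicate 3 stood apart, correlating with replicates 1 and 2 at r = 0.938 and 0.918 across genes, which are not independent, against 0.979 for replicates 1 and 2. Markers of some other cells moved with the groups. Oligodendrocyte sums moved less, at 1276 to 1414 in wild-type, 1328 to 1616 in repopulating and 1133 to 1276 in bone-marrow libraries. Neuron and lymphocyte sums ran only from 10.3 to 33.4 and from 15.3 to 52.0 over all libraries. The 5 markers of cycling cells summed to 2616 to 3155 in bone-marrow macrophages and to 256 to 422 in both kinds of microglia. Mki67 alone stood at 79.5 in repopulating replicate 3, against 2.83 and 1.48 in replicates 1 and 2 and 105 to 176 in bone-marrow macrophages. The other cycling markers, Top2a, Ccnb1, Cdk1 and Birc5, were lowest in replicate 3 among the repopulating libraries. The 7 neutrophil markers summed to 25689 and 27552 in the wild-type libraries and to 796 to 2953 elsewhere. The 5 markers of border macrophages summed to 5269.6 to 6457 in bone-marrow macrophages and to 324 to 934 in microglia, a sum carried by Mrc1 and Pf4. Cd163, at 16.5, 23.3 and 23.8 in bone-marrow and 25.6 and 63.0 in wild-type libraries, and Lyve1, at 4.55, 9.55 and 5.29 and 7.48 and 17.3, were not higher in bone-marrow macrophages. The 4 monocyte markers found summed to 2049 to 2595 in wild-type, 121 to 396 in repopulating and 1011 to 1545 in bone-marrow libraries. For the 5 endothelial markers the sums were 399.6 to 604, 207 to 438 and 62.5 to 74.1. Pecam1 stood at 276 and 362 in wild-type and at 10.8, 9.55 and 10.6 in bone-marrow libraries, where Tek was 0 throughout. Kdr was higher in repopulating libraries, at 157, 102 and 128, than in wild-type ones, at 38.5 and 69.1. Flt1 was not lower in bone-marrow libraries, at 24.4, 49.8 and 39.7, than in wild-type ones, at 23.5 and 33.6. The part of these cells in the differences below was not tested. In such bulk samples, fewer cells of a type and less RNA per cell cannot be told apart.

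Bone-marrow macrophages differed from wild-type microglia in 14 of the 38 members. The genes of fatty acid synthesis Acaca and Fasn, the desaturase Fads2, the acyl-CoA synthetases Acsl1 and Acsl3 and the transcription factor Srebf2 were higher. The sterol genes Hmgcs1, Fdft1, Nsdhl, Ebp, Sc5d and Dhcr7, the retention factor Insig2 and the synthetase Acsl4 were lower. These 6 higher and 8 lower members stand beside 21.3% and 22.2% of all genes tested, and the median log2 difference was 0.04 over the members and -0.01 over all genes. The members were thus called no more often than genes in general. With equal library totals, where the median of all genes was 0.14, and likewise with TMM scaling, the split became 8 higher and 6 lower. Over all genes the shares were 26.3% and 18.1% with equal totals and 24.4% and 19.3% with TMM scaling. The lower calls depended on single libraries. Leaving out bone-marrow replicates 1, 2 and 3 in turn gave 5, 5 and 3, beside 16.6%, 18% and 16.9% of all genes. Without wild-type replicate 1 or 2, which left 1 library in that group, the lower calls and their share over all genes fell too. Without repopulating replicate 3, which enters only through the shared estimate of the spread, 10 were called higher, beside 31.6% of all genes.

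Repopulating microglia differed from wild-type microglia in 3 members, all higher: Acaca, Acly, which makes cytosolic acetyl-CoA from citrate, and Npc2, the soluble sterol carrier of the lysosome. Over all genes 4.86% were called higher and 3.75% lower. No member was called lower by limma or edgeR, while DESeq2 called 1, and at an unadjusted limma p under 0.05 there were 6 higher and 6 lower. The median log2 difference was 0.02 over the members and -0.02 over all genes. With equal library totals, where the median of all genes was -0.13, 3 members were higher and 1 lower, beside 3.85% and 6.38% of all genes. The higher count fell without wild-type replicate 1, which left 1 library in that group, and the share over all genes fell too. Without repopulating replicate 3 the higher count rose to 5, and 3 members were then called lower. Over all genes, 15% were called higher and 11.2% lower in that setting.

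Repopulating microglia differed from bone-marrow macrophages in 11 members. Insig2, Dhcr7, Sc5d, Acly, Acsl4 and Npc2 were higher in repopulating microglia, and Acaca, Fads2, Elovl6, Acsl1 and Acsl3 were lower. Over all genes the shares called were 16.0% higher and 14.9% lower, near the 6 and 5 of 38 found here, and the median log2 difference was -0.02 over the members and 0.00 over all genes. Scaling to equal totals moved the median of all genes to -0.25 and changed the split to 3 higher and 9 lower, beside 10.2% and 25.7% of all genes. The higher calls numbered 3, 2, 3 and 10 without bone-marrow replicates 1 and 3 and repopulating replicates 1 and 3. The shares of all genes called higher were 10.6%, 11.2%, 12.3% and 23.5% in these settings. Each pair of comparisons shares a group, so they are not independent of each other.

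**Figure D1:**
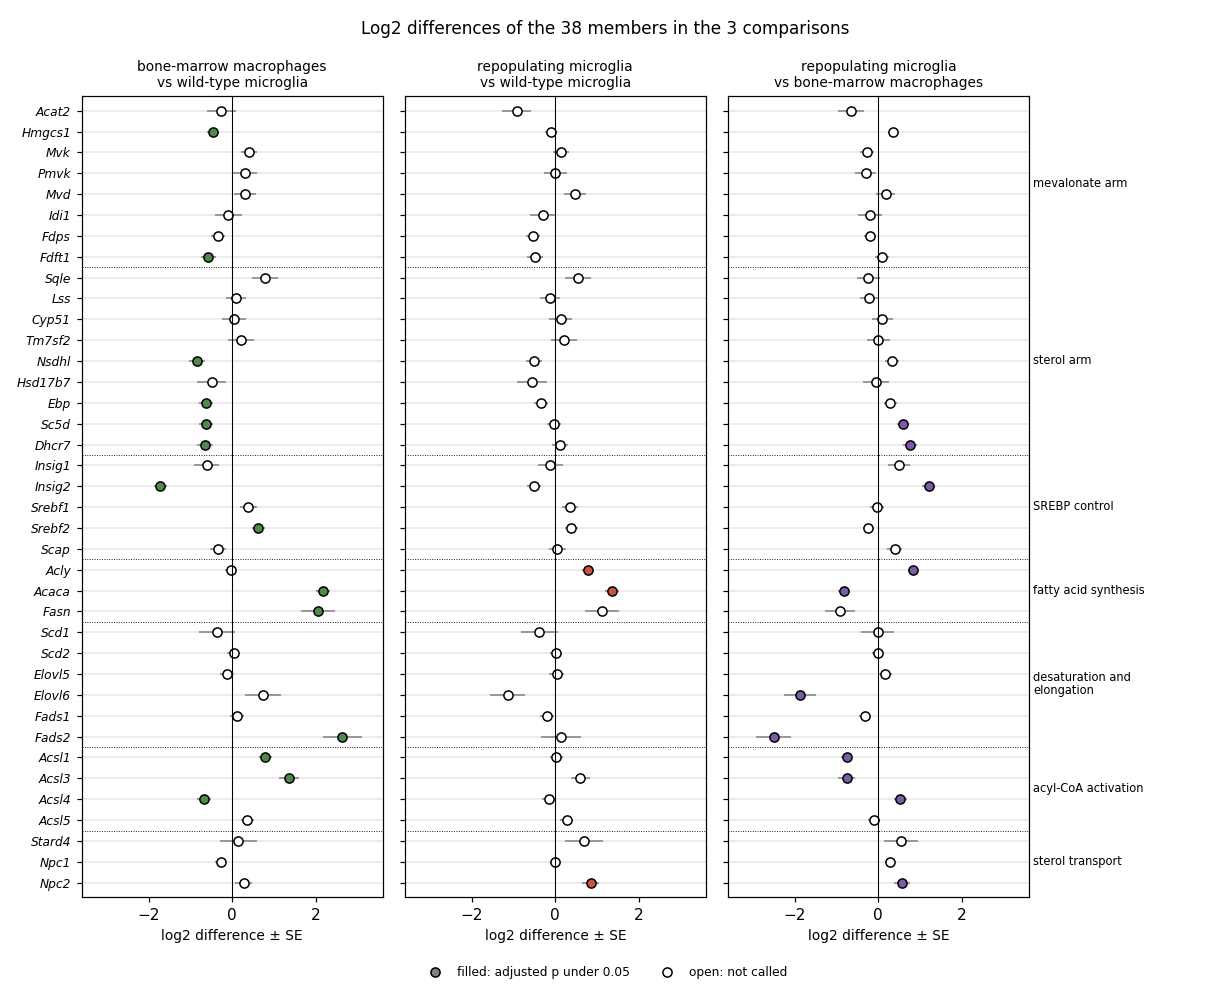
Log2 difference with its standard error (horizontal axis) for each of the 38 members (vertical axis, by role) in the 3 comparisons, with filled points for members called at an adjusted p under 0.05. The left panel holds 14 filled points, the middle panel 3 and the right panel 11, and the differences of the mevalonate arm lie between -1 and 1 in all panels while those of Acaca, Fasn and Fads2 reach beyond 2 in the left panel.

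Promoter windows of 300 bases from RefSeq (GRCm38.p6, from 250 bases before the start to 50 after it) were found for 30 of the 38 members, in 39 windows. They are shown for 3 members, picked as examples that do not represent the others. Hmgcs1 is an early mevalonate gene that was called lower in bone-marrow macrophages than in wild type, weakly. Fasn was higher there and Insig2 lower. Windows are written along the strand of the gene, and capitals mark exact matches, on either strand, to the sterol regulatory element TCACNCCAC, to the palindromic E-box TCACGTGA or to the CCAAT box. The Hmgcs1 window lies at chr13:119690101-119690400 on the plus strand, the Fasn window at chr11:120824498-120824797 on the minus strand, and the Insig2 window, the first of 3 for that gene, at chr1:121332540-121332839 on the minus strand.
Hmgcs1: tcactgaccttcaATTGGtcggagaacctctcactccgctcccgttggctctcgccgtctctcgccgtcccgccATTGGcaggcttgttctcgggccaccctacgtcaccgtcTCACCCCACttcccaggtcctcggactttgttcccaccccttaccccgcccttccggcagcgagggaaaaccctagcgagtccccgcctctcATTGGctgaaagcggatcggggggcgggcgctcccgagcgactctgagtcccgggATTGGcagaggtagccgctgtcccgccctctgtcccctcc
Fasn: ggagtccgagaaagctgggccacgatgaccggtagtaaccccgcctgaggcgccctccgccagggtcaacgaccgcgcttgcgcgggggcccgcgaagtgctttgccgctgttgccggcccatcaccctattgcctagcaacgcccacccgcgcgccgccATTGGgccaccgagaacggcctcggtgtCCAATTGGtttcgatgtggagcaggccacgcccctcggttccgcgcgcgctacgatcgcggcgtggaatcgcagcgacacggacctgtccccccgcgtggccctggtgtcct
Insig2: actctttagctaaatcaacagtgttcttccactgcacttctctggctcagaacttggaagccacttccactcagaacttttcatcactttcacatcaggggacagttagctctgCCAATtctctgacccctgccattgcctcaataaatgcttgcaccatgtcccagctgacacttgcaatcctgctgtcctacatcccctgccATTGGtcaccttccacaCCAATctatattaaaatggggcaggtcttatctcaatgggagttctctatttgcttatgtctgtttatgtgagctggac
The Hmgcs1 window holds 1 sterol regulatory element and 4 CCAAT boxes. The Fasn and Insig2 windows shown hold 3 CCAAT boxes each, 2 of them overlapping in Fasn, and no match to the other motifs. The Insig2 windows not shown hold no match to any of the motifs. Among all 39 windows the sterol regulatory element was found in 2, of Hmgcs1 and Acsl1, the E-box in 0 and the CCAAT box in 25 (64.1%). Of all 32851 windows in the RefSeq table, 1.24%, 0.974% and 37.4% held these motifs. A match describes letters only, and which start site these cells use was not measured.

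The 3 enzymes that turn citrate into palmitate each differed between at least 2 populations. Acaca, acetyl-CoA carboxylase, makes malonyl-CoA and sets the pace of the route (GRCm38 chromosome 11, 84129672 to 84401651, plus strand). It stood at 55.6 and 49.8 normalised counts in the wild-type libraries, at 133, 133 and 143 in the repopulating ones and at 260.3, 224 and 237 in the bone-marrow ones. No library of 1 group reached into another group. On the log2 scale the bone-marrow macrophages were higher than wild type by 2.17 ± 0.16 (SE, limma adjusted p = 3.08e-05) and the repopulating microglia by 1.36 ± 0.16 (adjusted p = 0.00304), and repopulating microglia were lower than bone-marrow macrophages, at -0.81 ± 0.14 (adjusted p = 0.00307). With only the 2 groups compared in the fit, the difference between repopulating and wild-type microglia did not pass (adjusted p = 0.0606).

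Fasn, fatty acid synthase, builds palmitate from malonyl-CoA (chromosome 11, 120805846 to 120824547, minus strand). Its levels were 99.4 and 104 in wild-type libraries and 472, 353 and 447 in bone-marrow libraries, a log2 difference of 2.04 ± 0.41 (adjusted p = 0.00431). The repopulating libraries spread widely, at 198, 129.9 and 423: replicates 1 and 2 lay nearer the wild-type level and replicate 3 within the bone-marrow range. Replicate 3 held 2.58 times the mean of replicates 1 and 2, and Fasn had the widest spread of any member among repopulating libraries, with a coefficient of variation of 61.2% against a median of 16.4%. The log2 difference from wild type was 1.12 ± 0.41 (adjusted p = 0.125) and that from bone-marrow macrophages -0.92 ± 0.37 (adjusted p = 0.0885). DESeq2 called the first (adjusted p = 0.0269), and the second passed with equal totals (0.0462). Without replicate 3 these became 0.66 (adjusted p = 0.0347) and -1.39 (adjusted p = 7.95e-05). The difference from wild type also passed without replicate 2 (adjusted p = 0.0346).

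Acly, ATP citrate lyase (chromosome 11, 100476353 to 100528000, minus strand), followed another order. The repopulating libraries stood at 2263, 2219.7 and 2399, the bone-marrow libraries at 1287, 1259 and 1358 and the wild-type libraries at 1199 and 1489.5. Every repopulating library was above every other library, and the other groups overlapped. The log2 difference was 0.78 ± 0.13 against wild type (adjusted p = 0.0124) and 0.82 ± 0.12 against bone-marrow macrophages (adjusted p = 0.00108), while bone-marrow macrophages and wild type differed by -0.04 ± 0.13 (adjusted p = 0.826). The call against wild type ended without wild-type replicate 1 (0.146) and with only the 2 groups compared (0.0919).

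**Figure D2:**
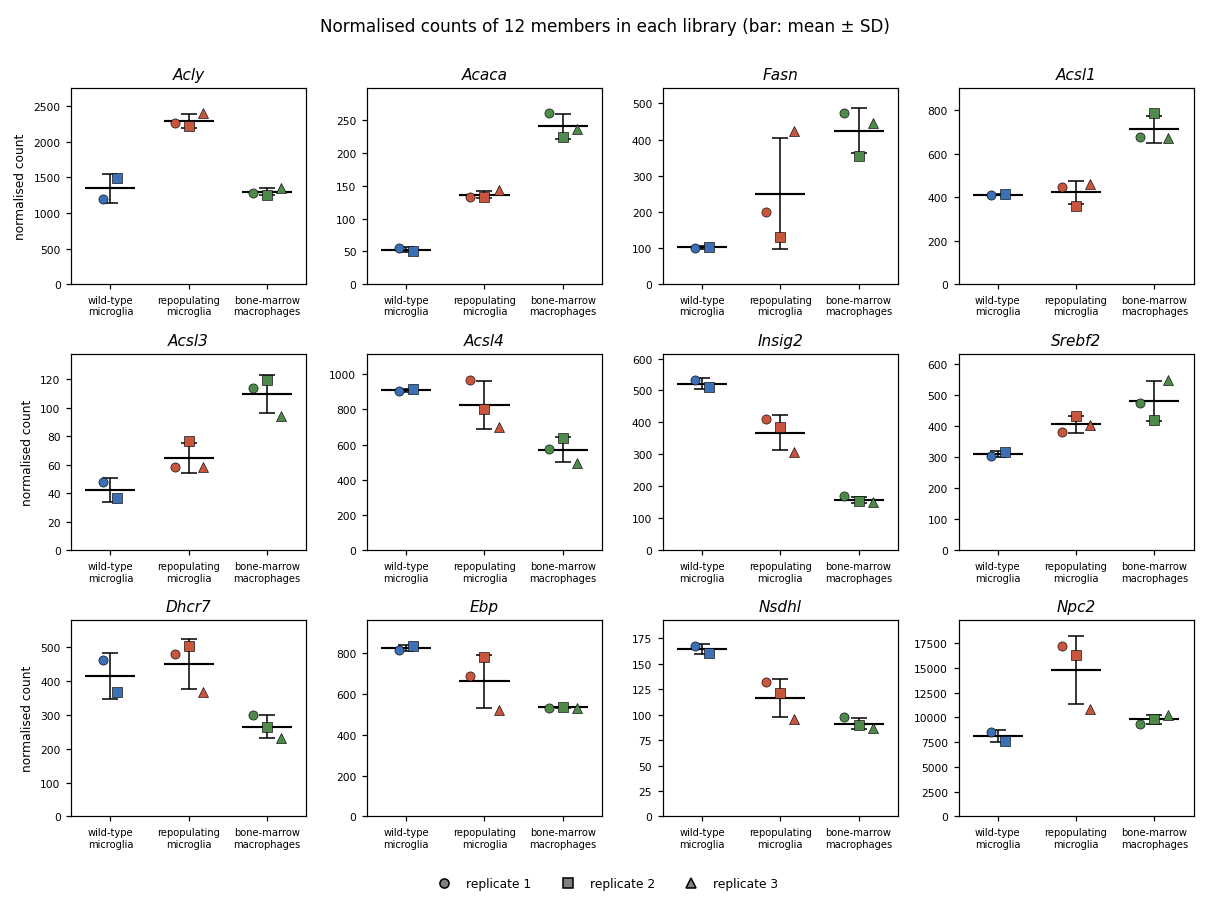
Normalised counts (vertical axes, starting at 0) of 12 members in each of the 8 libraries, by population (horizontal axis), with the replicate number as the point shape and the mean and SD as black lines. Acaca stands at 52.7 ± 4.06, 136 ± 5.67 and 240.4 ± 18.5 in wild-type microglia, repopulating microglia and bone-marrow macrophages, Acly is highest in the 3 repopulating libraries, and Insig2 falls from left to right.

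Among the proteins that control the route, Insig2 differed most. Insig2 holds the Scap and SREBP complex in the endoplasmic reticulum (chromosome 1, 121304353 to 121332589, minus strand). It stood at 534 and 509 in wild-type, 409.9, 387 and 306 in repopulating and 169, 155 and 151 in bone-marrow libraries, with no overlap between groups. Bone-marrow macrophages differed from wild type by -1.72 ± 0.16 (adjusted p = 9.54e-05) and repopulating microglia from bone-marrow macrophages by 1.20 ± 0.15 (adjusted p = 0.000436), and both calls held under all 22 alternatives. Between repopulating and wild-type microglia the difference of -0.51 ± 0.16 did not pass (adjusted p = 0.0864), though it did without repopulating replicate 3 (0.0498), with equal totals (0.0325) and by DESeq2 (0.0489). Its paralogue Insig1, itself a target of SREBP, stood at 223 and 161 in wild-type, 163, 217 and 151 in repopulating and 131, 164 and 87.3 in bone-marrow libraries, and passed in no comparison (adjusted p = 0.833, 0.119 and 0.184 for repopulating against wild type, bone-marrow against wild type and repopulating against bone-marrow). Per kilobase of exon, Insig2 made up 71.0% ± 4.10 (SD, n = 2) of the summed level of the pair in wild-type microglia, 64.9% ± 3.89 (SD, n = 3) in repopulating microglia and 53.2% ± 7.49 (SD, n = 3) in bone-marrow macrophages.

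Srebf2, which encodes the SREBP that mainly drives sterol genes (chromosome 15, 82147181 to 82205379, plus strand), ran the other way. It stood at 305 and 316 in wild-type, 379.7, 434 and 403 in repopulating and 475, 421 and 550.2 in bone-marrow libraries. Bone-marrow macrophages were higher than wild type by 0.62 ± 0.15 (adjusted p = 0.0105), a call that ended without wild-type replicate 1 (0.0721) or 2 (0.053). Repopulating libraries lay above wild type without passing (0.38 ± 0.15, adjusted p = 0.151) and overlapped with the bone-marrow range. Srebf1, whose main product drives fatty acid genes, stood at 447 and 402 in wild-type, 559, 419 and 673 in repopulating and 504, 565 and 591 in bone-marrow libraries, and the escort gene Scap at 551 and 609, 559, 486 and 794 and 446, 438 and 491. Neither was called in any comparison, with adjusted p from 0.137 to 0.914. Without repopulating replicate 3, which was the highest repopulating library for both genes, Srebf1 was called higher (0.0306) and Scap lower (0.0243) in bone-marrow macrophages than in wild type. Without repopulating replicate 2, Scap was called higher in repopulating microglia than in bone-marrow macrophages (0.0448).

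The mevalonate arm runs from acetyl-CoA to squalene. Of its 8 genes, 0 higher and 2 lower were called in bone-marrow macrophages against wild type, where 21.3% and 22.2% of all genes were, and limma called 0 in the other comparisons, where at an unadjusted p under 0.05 there were 3 lower in repopulating microglia against wild type and 1 higher against bone-marrow macrophages. The edgeR and DESeq2 tests called 0 of the 8 there too. Hmgcs1, HMG-CoA synthase (chromosome 13, 119690379 to 119708260, plus strand), stood at 332 and 333 in wild-type, 315, 337 and 275 in repopulating and 254, 235 and 235 in bone-marrow libraries, a log2 difference of -0.46 ± 0.14 between bone-marrow macrophages and wild type (adjusted p = 0.0289). Fdft1, squalene synthase, stood at 155 and 146, 92.6, 124 and 107 and 105, 94.4 and 105 in the same order of groups, a difference of -0.57 ± 0.18 (adjusted p = 0.0339). Both were weak calls. Hmgcs1 ended without wild-type replicate 1 (0.122) or 2 (0.122) or bone-marrow macrophage replicate 1 (0.0657), 2 (0.0811) or 3 (0.0822) and with equal totals (0.0867) or TMM scaling (0.0725). Fdft1 ended without wild-type replicate 1 (0.156) or 2 (0.109) or bone-marrow macrophage replicate 1 (0.0816), 2 (0.0978) or 3 (0.0725) and with equal totals (0.104), TMM scaling (0.0675) and edgeR (0.0513). Without repopulating replicate 3, Hmgcs1 was called higher in repopulating microglia than in bone-marrow macrophages (0.0107).

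Farnesyl diphosphate synthase, Fdps, feeds both sterols and protein prenylation. It stood at 115, 142 and 141 in repopulating microglia, below the wild-type values of 197 and 185, and at 144, 147 and 163 in bone-marrow macrophages. The log2 difference between repopulating and wild-type microglia, -0.53 ± 0.17, did not pass (adjusted p = 0.0863) and did so without repopulating replicate 3 (0.0262). The thiolase gene Acat2, the first step, was low everywhere, at 43.8 and 67.1 in wild-type, 30.2, 39.8 and 18.4 in repopulating and 47.7, 42.4 and 45.0 in bone-marrow libraries (-0.92 ± 0.35 for repopulating against wild type, adjusted p = 0.135). The kinases Mvk and Pmvk, the decarboxylase Mvd and the isomerase Idi1 had log2 differences between -0.30 (Pmvk) and 0.47 (Mvd) across all comparisons, and limma called none of them in any. Reads of Fdps, Fdft1, Hmgcs1 and Mid1ip1, a gene described below, may include those of other genes. Of the exon bases of Fdps, 26.7% overlap the model Gm43738 on the same strand. Those of Fdft1 overlap Ctsb, a protease gene on the opposite strand, by 18.3%, and the library kit does not mark strand. Exons of Hmgcs1 overlap Gm48342 (12.1% of bases) and those of Mid1ip1 overlap Gm14493 (25.5%), both on the opposite strand.

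In the sterol arm, from squalene to cholesterol, 4 genes separated bone-marrow macrophages from wild type, Nsdhl, Ebp, Sc5d and Dhcr7. Of its 9 genes, 0 higher and 4 lower were called in bone-marrow macrophages against wild type (21.3% and 22.2% of all genes), 0 against wild type in repopulating microglia (4.86% and 3.75%), where at an unadjusted p under 0.05 there was 1 lower and edgeR and DESeq2 called 0, and 2 higher and 0 lower in repopulating microglia against bone-marrow macrophages (16.0% and 14.9%). Dhcr7, the reductase of the last step to cholesterol (chromosome 7, 143823145 to 143848410, plus strand), stood at 464 and 368 in wild-type, 479, 505 and 367 in repopulating and 299, 264 and 232 in bone-marrow libraries. Both kinds of microglia lay above all bone-marrow libraries and overlapped with each other. The log2 difference was -0.65 ± 0.19 for bone-marrow macrophages against wild type (adjusted p = 0.0257) and 0.76 ± 0.17 for repopulating against bone-marrow cells (adjusted p = 0.0108). The first ended without wild-type replicate 1 (0.19) or bone-marrow macrophage replicate 2 (0.0649) or 3 (0.0856), and the second without bone-marrow macrophage replicate 3 (0.0505).

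Sc5d, the desaturase of the step before, was also lowest in bone-marrow macrophages (chromosome 9, 42251595 to 42264256, minus strand). It stood at 185 and 153 in wild-type, 171, 155 and 167 in repopulating and 114, 111 and 101 in bone-marrow libraries. Bone-marrow macrophages differed from wild type by -0.62 ± 0.17 (adjusted p = 0.0153), ended without wild-type replicate 1 (0.129) or bone-marrow macrophage replicate 3 (0.0543), and repopulating microglia from bone-marrow macrophages by 0.59 ± 0.15 (adjusted p = 0.016), ended without repopulating replicate 1 (0.0539) or bone-marrow macrophage replicate 1 (0.0523) or 3 (0.0658) and with equal totals (0.108). Sc5d and Dhcr7 did not pass between repopulating and wild-type microglia, at -0.03 ± 0.17 and 0.11 ± 0.19 (adjusted p = 0.919 and 0.747).

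Ebp, the sterol isomerase, and Nsdhl, a dehydrogenase that removes methyl groups from the sterol ring, lie on the X chromosome (Ebp at chromosome X, 8185329 to 8193512, minus strand, Nsdhl at chromosome X, 72918557 to 72958514, plus strand). Ebp stood at 814 and 837 in wild-type, 687, 779 and 522 in repopulating and 532, 538 and 533 in bone-marrow libraries, and Nsdhl at 168 and 161, 132, 121 and 95.6 and 97.2, 90.1 and 86.4. Bone-marrow macrophages were lower than wild type by 0.63 ± 0.17 for Ebp and 0.84 ± 0.19 for Nsdhl, written as sizes (adjusted p = 0.0174 and 0.00759). The Ebp call ended without wild-type replicate 1 (0.0829) or 2 (0.0954) or bone-marrow macrophage replicate 1 (0.0539) or 3 (0.0516), and the Nsdhl call without wild-type replicate 1 (0.0564). Without repopulating replicate 3, the lowest repopulating library for both genes, both were called higher in repopulating microglia than in bone-marrow macrophages (0.00373 and 0.0267). The bone-marrow libraries were mixed in sex: Xist, the transcript of the inactive X chromosome, stood at 0.568 in replicate 1 and at 567 and 538 in replicates 2 and 3, and their Ebp levels lay within 532 to 538. The part of sex in the differences of these genes was not tested. Repopulating replicate 3 held both Xist, at 595, and Y-linked transcripts, summing to 274, while replicate 1 had Xist at 706 and replicate 2 at 0.

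The remaining 5 genes of the sterol arm were not called in any comparison. Squalene epoxidase, Sqle, stood at 62.0 and 29.5 in wild-type, 69.9, 53.1 and 68.0 in repopulating and 77.9, 77.4 and 69.7 in bone-marrow libraries, a difference of 0.79 ± 0.31 between bone-marrow macrophages and wild type (adjusted p = 0.0676) that passed without wild-type replicate 1 (0.0152) or repopulating replicate 3 (0.0285). Lanosterol synthase, Lss, stood at 43.8 to 73.2 over all 8 libraries, and the lanosterol demethylase Cyp51 at 137 to 243. The reductases Tm7sf2 and Hsd17b7 ran from 22.4 to 41.3 and from 25.3 to 64.1.

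Among desaturases and elongases the calls fell on Fads2 and Elovl6, the lesser members of their pairs. Fads2, the desaturase that opens the route to long polyunsaturated fatty acids (chromosome 19, 10062765 to 10101746, minus strand), stood at 51.1, 46.7 and 55.6 in bone-marrow macrophages, 12.8 and 4.07 in wild-type and 11.3, 5.90 and 8.06 in repopulating microglia. It was higher in bone-marrow macrophages than in wild type by 2.64 ± 0.47 (adjusted p = 0.00248), and lower in repopulating microglia than in bone-marrow macrophages, at -2.50 ± 0.42 (adjusted p = 0.00237). The microglial values rest on few reads, 12 and 4 in the wild-type and 12, 4 and 7 in the repopulating libraries, so their own ratio is uncertain. Fads1, the desaturase of a later step, was abundant and close in all groups, at 1127 and 1280.1, 1011, 868 and 1287 and 1296, 1288 and 1304 in wild-type, repopulating and bone-marrow libraries. It passed in no comparison, and without repopulating replicate 3 it was called lower in repopulating microglia than in wild type (0.0411) and than in bone-marrow macrophages (0.00343). Per kilobase, Fads2 made up 5.44% ± 0.415 (SD, n = 3) of the pair in bone-marrow macrophages, 1.05% ± 0.829 (SD, n = 2) in wild-type and 1.17% ± 0.387 (SD, n = 3) in repopulating microglia.

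Elovl6, which lengthens palmitate to stearate, was the lowest member per kilobase. It stood at 15.3, 22.3 and 14.1 in bone-marrow macrophages, 8.55 and 11.2 in wild-type and 2.83, 4.43 and 4.61 in repopulating microglia, the last from 3, 3 and 4 reads. Repopulating microglia were lower than bone-marrow macrophages, at -1.87 ± 0.38 (adjusted p = 0.00604), and lay below wild type without passing (-1.14 ± 0.43, adjusted p = 0.131; 0.0461 without a variance trend). Elovl5, an elongase of polyunsaturated fatty acids, ran from 544 to 807 over the 8 libraries and was not called, though without repopulating replicate 3 it was higher in repopulating microglia than in bone-marrow macrophages (0.0163). Scd2, the stearoyl-CoA desaturase of brain, differed little between group means. Its levels were 1548 and 1496 in wild-type, 1505, 1567 and 1550.3 in repopulating and 1416, 1879 and 1418 in bone-marrow libraries. Log2 differences were 0.02 ± 0.15 (repopulating against wild type), 0.03 ± 0.15 (bone-marrow against wild type) and -0.02 ± 0.13 (repopulating against bone-marrow). Within bone-marrow macrophages Scd2 spread more, with a coefficient of variation of 17.0% against a median of 8.03% over the members. Its paralogue Scd1 made up 0.966% to 1.32% of the pair per kilobase, by group mean. How reads shared by such similar genes were assigned is not known.

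Acyl-CoA synthetases, which activate fatty acids for use in lipids or oxidation, differed in their makeup. Acsl4 prefers arachidonate and lies on the X chromosome (chromosome X, 142317993 to 142390535, minus strand). It stood at 903 and 915 in wild-type, 970.0, 803 and 698 in repopulating and 576, 641 and 497 in bone-marrow libraries, lower in bone-marrow macrophages than in wild type, at -0.68 ± 0.17 (adjusted p = 0.0126), and higher in repopulating microglia than in bone-marrow macrophages, at 0.52 ± 0.15 (adjusted p = 0.0312). The first call ended without wild-type replicate 1 (0.0712) or 2 (0.0742). The second ended without wild-type replicate 1 (0.0544) or 2 (0.0538), repopulating replicate 1 (0.103) or 2 (0.0524) or bone-marrow macrophage replicate 1 (0.0937) or 3 (0.12), and with equal totals (0.156), TMM scaling (0.0537), quantile normalisation (0.0583), no variance trend (0.0557) and only the 2 groups compared (0.0551).

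Acsl1, a broad synthetase of macrophages and fat, went the other way (chromosome 8, 46471037 to 46536051, plus strand). It stood at 409 and 414 in wild-type, 445, 360.1 and 461 in repopulating and 679, 786 and 673 in bone-marrow libraries, and all bone-marrow libraries were above all microglial ones. The difference was 0.79 ± 0.15 for bone-marrow macrophages against wild type (adjusted p = 0.00365) and -0.76 ± 0.14 for repopulating against bone-marrow cells (adjusted p = 0.00323), and both calls held under all 22 alternatives. Acsl3, a synthetase of the endoplasmic reticulum and lipid droplets, stood at 48.1 and 36.6, 58.6, 76.7 and 58.7 and 114, 119.8 and 94.4 in the same order of groups, with differences of 1.36 ± 0.23 and -0.75 ± 0.21 (adjusted p = 0.00201 and 0.0242). The second of these ended without repopulating replicate 1 (0.0769) or bone-marrow macrophage replicate 1 (0.097) or 2 (0.0911) and with quantile normalisation (0.0583). Acsl5, the most abundant of the family per kilobase, stood at 1259.8 and 1198, 1638, 1616 and 1226 and 1730.4, 1502 and 1521 and was not called. With equal totals it passed as higher in bone-marrow macrophages than in wild type (0.0155), and without repopulating replicate 3 it was called higher in repopulating microglia (0.019) and in bone-marrow macrophages (0.00789) than in wild type.

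**Figure D3:**
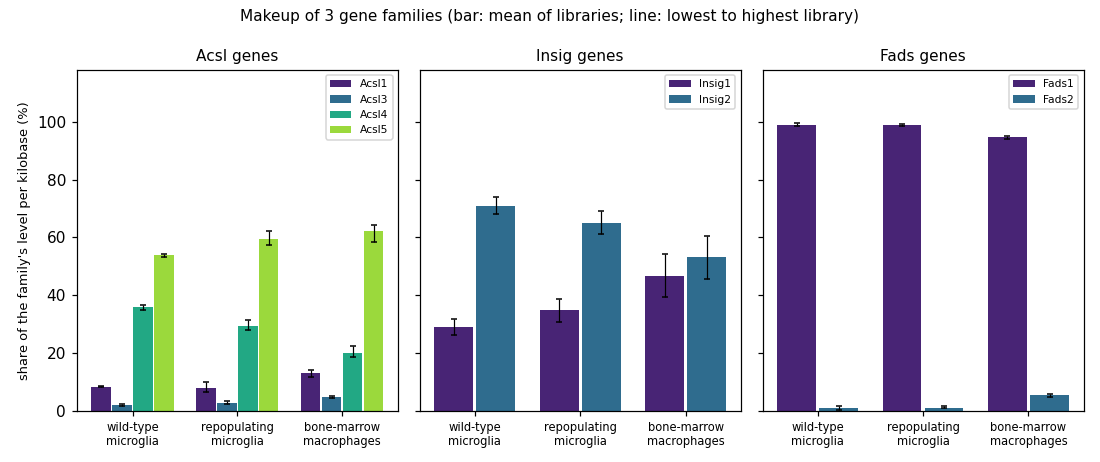
Share of each gene in the summed level per kilobase of its family (vertical axis, percent) in the 3 populations (horizontal axis), for the Acsl, Insig and Fads genes, with bars for the mean over libraries and lines from the lowest to the highest library. Acsl4 makes up 35.8%, 29.6% and 20.1% of the Acsl level in wild-type microglia, repopulating microglia and bone-marrow macrophages, and the library ranges do not overlap.

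Of the sterol carriers, Npc2 was the most abundant member per kilobase and was highest in repopulating microglia. Npc2 binds cholesterol inside the lysosome and hands it to the membrane protein Npc1 (chromosome 12, 84754562 to 84773152, minus strand for Npc2). Repopulating libraries stood at 17244, 16332 and 10855, wild-type ones at 8528 and 7646 and bone-marrow ones at 9299, 9860.1 and 10221. Replicate 3 lay near the bone-marrow range, at 0.647 times the mean of replicates 1 and 2, but no groups overlapped. The log2 difference was 0.85 ± 0.21 against wild type (adjusted p = 0.04) and 0.57 ± 0.18 against bone-marrow macrophages (adjusted p = 0.0449). Both calls were weak. Against wild type it ended without wild-type replicate 1 (0.198) or 2 (0.216), repopulating replicate 1 (0.101) or 2 (0.0775) or bone-marrow macrophage replicate 1 (0.0799), 2 (0.0796) or 3 (0.0784), with quantile normalisation (0.0759), no filter (0.0621), no variance trend (0.0647) and only the 2 groups compared (0.167). Against bone-marrow macrophages it ended without wild-type replicate 1 (0.0711) or 2 (0.0716), repopulating replicate 1 (0.145) or 2 (0.106) or bone-marrow macrophage replicate 1 (0.143), 2 (0.111) or 3 (0.102), and with equal totals (0.128), TMM scaling (0.0684), quantile normalisation (0.125), no filter (0.0759), no variance trend (0.0674) and only the 2 groups compared (0.0741), while bone-marrow macrophages were called higher than wild type without repopulating replicate 3 (0.0372).

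Npc1 itself stood at 2842 and 3013 in wild-type, 3052, 2642 and 3104 in repopulating and 2365, 2652 and 2272 in bone-marrow libraries and was not called (adjusted p = 0.999, 0.129 and 0.12 for repopulating against wild type, bone-marrow against wild type and repopulating against bone-marrow). Without repopulating replicate 3, which bears on that comparison only through the spread, it was lower in bone-marrow macrophages than in wild type (0.0449). Stard4, a cytosolic sterol carrier and SREBP target, varied within groups, at 62.0 and 29.5, 68.0, 112 and 43.8 and 55.1, 35.0 and 55.6 in wild-type, repopulating and bone-marrow libraries, and all groups overlapped.

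Among repopulating libraries, replicate 3 was the least like the others for these genes. The SD of the log2 differences between libraries over the 38 members was 0.38 for repopulating replicates 1 and 2, 0.46 and 0.56 for replicate 3 against each of them, and 0.43 for the wild-type pair. The median coefficient of variation over the 38 members was 16.4% in repopulating microglia, against 8.03% in bone-marrow macrophages and 7.71% over the 2 wild-type libraries. Replicate 3 was the lowest of the repopulating libraries for 18 members and the highest for 10. It was lowest, against the mean of replicates 1 and 2, for Stard4, Acat2 and Idi1, at 0.486, 0.526 and 0.537 times, and highest for Fasn, Scap and Srebf1, at 2.58, 1.52 and 1.38 times. The astrocyte markers, 6 in number, are dominated by Slc1a3 and summed to 1478, 242 and 2140 in repopulating replicates 1 to 3 and to 1072 and 6441 in the wild-type libraries, against 70.5 to 106 in bone-marrow macrophages, and Aqp4 was at 0 in repopulating replicate 2. Slc1a3 alone stood at 1387, 182 and 1909 in repopulating, 987 and 6365 in wild-type and 17.0, 14.8 and 14.1 in bone-marrow libraries, while Gfap stood at 17.0, 13.3 and 18.4, 21.4 and 13.2 and 14.8, 29.7 and 30.0. Their part in the spread was not tested.

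Genes around the route were followed in 4 lists. In a list of 18 tested genes of fatty acid synthesis, elongation, desaturation and activation outside the members, 2 were higher and 6 lower in bone-marrow macrophages than in wild type, 0 higher and 1 lower in repopulating microglia than in wild type, and 4 higher and 2 lower in repopulating microglia than in bone-marrow macrophages. The shares called over all genes, higher and lower, are 21.3% and 22.2%, 4.86% and 3.75%, and 16.0% and 14.9% in these comparisons, and they stand beside the counts of the other 3 lists too. Thrsp, the Spot14 protein that promotes lipogenesis, stood at 396 and 366 in wild-type, 344, 239 and 366 in repopulating and 8.52, 9.55 and 3.53 in bone-marrow libraries, the last from 15, 9 and 4 reads. Bone-marrow macrophages were lower than wild type, at -5.63 ± 0.37 (adjusted p = 1.93e-05), and repopulating microglia higher than bone-marrow macrophages, at 5.34 ± 0.33 (adjusted p = 1.98e-05). Its relative Mid1ip1, which promotes polymerisation of acetyl-CoA carboxylase, stood at 1777 and 1643, 948, 1195 and 1208 and 521, 539 and 529, with differences of -1.69 ± 0.14 and 1.07 ± 0.13 (adjusted p = 5.36e-05 and 0.000386). Both genes were lowest in bone-marrow macrophages, where Acaca and Fasn were highest by group mean. Mid1ip1 was also lower in repopulating than in wild-type microglia, at -0.62 ± 0.14 (adjusted p = 0.0318), a call that ended without wild-type replicate 1 (0.249) or 2 (0.136), repopulating replicate 1 (0.0741) or bone-marrow macrophage replicate 1 (0.0735), 2 (0.0663) or 3 (0.0665), without a variance trend (0.0622) and with only the 2 groups compared (0.156). Fads3, a relative of Fads2, followed Fads2, at 138, 121 and 174 in bone-marrow macrophages against 21.4 and 23.4 in wild-type and 12.3, 26.6 and 26.5 in repopulating microglia (2.62 ± 0.36 and -2.73 ± 0.32, adjusted p = 0.000617 and 0.000353). Ptplad1, a dehydratase of fatty acid elongation, was lower in bone-marrow macrophages than in wild type, at -1.11 ± 0.19, and higher in repopulating microglia than in bone-marrow macrophages, at 0.83 ± 0.17 (adjusted p = 0.00221 and 0.00694).

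**Figure D4:**
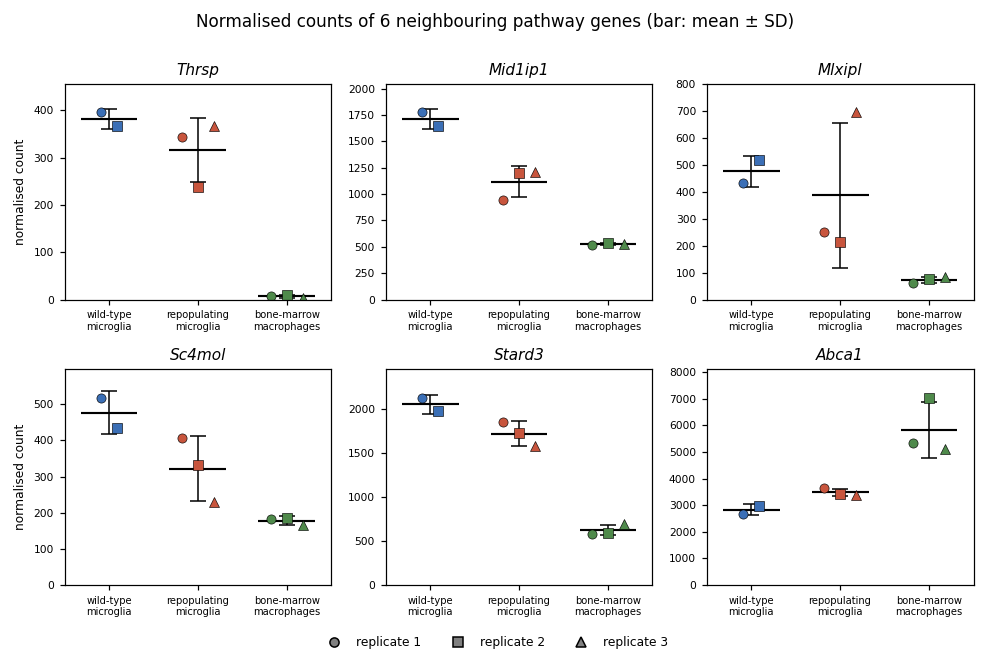
Normalised counts (vertical axes, starting at 0) of 6 genes next to the route in each of the 8 libraries, by population (horizontal axis), with the replicate number as the point shape and the mean and SD as black lines. Thrsp is at 381 ± 21.5 and 316 ± 67.9 in wild-type and repopulating microglia and at 7.20 ± 3.22 in bone-marrow macrophages, and Abca1 is the 1 gene of the 6 that is highest in bone-marrow macrophages.

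In the list of 12 further sterol genes tested, 2 were higher and 2 lower in bone-marrow macrophages than in wild type (21.3% and 22.2% of all genes), 3 higher and 2 lower in repopulating microglia than in bone-marrow macrophages, and 0 in repopulating microglia against wild type, where limma gave 2 lower at an unadjusted p under 0.05. Sc4mol, the sterol methyl oxidase that works with Nsdhl, stood at 518 and 435 in wild-type, 406, 331 and 229 in repopulating and 184, 187 and 165 in bone-marrow libraries. It was lower in bone-marrow macrophages than in wild type, at -1.41 ± 0.23 (adjusted p = 0.0016), and higher in repopulating microglia than in bone-marrow macrophages, at 0.81 ± 0.21 (adjusted p = 0.0173), the latter ended without repopulating replicate 1 (0.0563) or bone-marrow macrophage replicate 1 (0.0544) or 3 (0.0691). Acat1, the mitochondrial thiolase, was higher in bone-marrow macrophages than in wild type by 1.01 ± 0.17 (adjusted p = 0.00206) and lower in repopulating microglia than in bone-marrow macrophages, at -0.67 ± 0.16 (adjusted p = 0.0119).

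The list of SREBP processing and turnover held 15 tested genes, and these included transcription factors and other regulators. Its counts are thus not of processing and turnover alone. Mlxipl, Nfya and Lpin1 were among its genes called lower in bone-marrow macrophages than in wild type. Of the 15, 1 was higher and 8 lower in bone-marrow macrophages than in wild type (21.3% and 22.2% of all genes), 7 higher and 0 lower in repopulating microglia than in bone-marrow macrophages (16.0% and 14.9%), and 0 called in repopulating microglia against wild type, where limma gave 1 higher and 2 lower at an unadjusted p under 0.05. The median log2 differences of the list were -0.64, 0.27 and -0.20 in this order of comparisons, against -0.01, 0.00 and -0.02 over all genes. Mlxipl, the glucose-sensing factor ChREBP of lipogenic genes, stood at 435 and 518 in wild-type, 252, 213 and 697 in repopulating and 60.2, 75.3 and 84.7 in bone-marrow libraries (-2.69 ± 0.44 for bone-marrow against wild type and 2.19 ± 0.39 for repopulating against bone-marrow, adjusted p = 0.0016 and 0.00336). As for Fasn, repopulating replicate 3 was the highest of its group. Without that library limma called Mlxipl lower in repopulating than in wild-type microglia, at -1.03 (adjusted p = 0.00194). It did so with library weights too (adjusted p = 0.0175), though the estimation of the weights stopped before convergence. The main limma fit did not call Mlxipl in that comparison.

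Among 16 tested genes of sterol export, uptake and storage, 4 were higher and 4 lower in bone-marrow macrophages than in wild type (21.3% and 22.2% of all genes), 3 higher and 3 lower in repopulating microglia than in bone-marrow macrophages, and 0 in repopulating microglia against wild type, where limma gave 1 higher and 2 lower at an unadjusted p under 0.05. Abca1, the cholesterol exporter, stood at 2679 and 2985 in wild-type, 3635, 3408 and 3387 in repopulating and 5324, 7041 and 5107 in bone-marrow libraries (1.03 ± 0.16 and -0.73 ± 0.14, adjusted p = 0.00132 and 0.00537). Stard3, a sterol carrier of late endosomes, went the other way, at 2136 and 1979.6, 1861, 1737 and 1581 and 584, 597 and 691 (-1.72 ± 0.13 and 1.47 ± 0.12, adjusted p = 3.92e-05 and 5.83e-05). Mylip, the ubiquitin ligase that removes lipoprotein receptors, and Dgat1, which makes triglycerides, were lower in bone-marrow macrophages than in wild type, at -1.73 ± 0.21 and -1.03 ± 0.15 (adjusted p = 0.000381 and 0.000994), and higher in repopulating microglia than in bone-marrow macrophages, with adjusted p = 0.00453 and 0.00463. Between repopulating and wild-type microglia, Mylip was called by DESeq2 (adjusted p = 0.0366) and not by limma (adjusted p = 0.0723).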

How the data were processed

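The deposited values are a signal per gene, made from read counts that were scaled once for every library: 100% of the values in a column are whole multiples (tolerance 0.01 reads) of its smallest value above 0, and that step served to get the reads back. The submitters' processing notes list DESeq 1.14.0, HTSeq, Bowtie2 2.1.0.0, TopHat2 2.0.10 and the build mm10. Per the labels' protocols libraries were made with an Illumina TruSeq RNA kit, of a version that does not mark strand. Groups come from the sample titles. Columns named for repopulating cells and controls were matched first, and the 3 columns named mono were taken as bone-marrow macrophages by exclusion. The replicates of each group differed by more than counting noise, and all were kept.

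The test was limma 3.58.1 (R 4.3.3) with a variance trend over all 8 libraries, on log2(normalised count + 1) for the 11415 genes that reached 10 in 2 or more libraries, two-sided, with no covariates. The spread is shared by all groups. Count tests on recovered reads used edgeR 4.0.16 and DESeq2 1.42.0. The fit was tested on simulated data. Other alternatives were pseudocounts of 0.5 and 5, no filter, a minimum of 50, 3 scalings, library weights, other variance settings, a replicate block, only the groups compared, and each library left out. They were applied to neighbouring pathway genes after the data had been seen. Members and lists were chosen with earlier results of these data known. All members may be named, and of each other list up to 4 genes by smallest adjusted p, of which the text gives a part; some are not reported here. Levels between genes are per kilobase of merged exons, and coordinates are 1-based, both from GENCODE vM21 (GRCm38, also called mm10). Figures used matplotlib 3.10.9.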

Additional observations from a re-analysis of the deposited data

How the results depend on the processing

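Of the 114 pairs of member and comparison, 28 were called, 12 of these under every alternative in which the gene was tested (Elovl6 was left out by the stricter filter), and no called difference reversed. Leaving out 1 library at a time gave, for repopulating against wild-type microglia, 1 to 5 members called higher and 0 to 3 lower; for bone-marrow macrophages against wild type, 5 to 10 and 1 to 11; and, with repopulating set against bone-marrow cells, 2 to 10 and 4 to 7. For repopulating against wild-type microglia, 0 were called higher with only the 2 groups compared, where 0.28% of all genes were called higher. With library weights, whose estimation stopped before convergence, 5 were higher and 3 lower there (14.2% and 10.4% of all genes). In the same comparison 1 was lower with equal totals (6.38%), with DESeq2 (5.86%) or without a variance trend (3.34%). For bone-marrow macrophages against wild type, 10 were higher with only the 2 groups compared (31.9%) and 10 with library weights (32.2%). For repopulating microglia against bone-marrow macrophages, 3 were higher and 9 lower with equal totals (10.2% and 25.7%). With library weights 12 were higher and 10 lower there (28.4% and 27.7%). The other settings kept each count within 1.5 times. The causes of these shifts were not tested. Replicate numbers are shared between groups but name no shared animal or day. Deviations of same-numbered libraries correlated at -0.240 to 0.244, and not every library correlated best with its own number. With the replicate block, 3 members were higher and 0 lower in repopulating against wild-type microglia, 7 and 6 in bone-marrow macrophages against wild type, and 5 and 6 in repopulating microglia against bone-marrow macrophages. Over all genes the shares, higher and lower, were 3.88% and 2.54%, 20.9% and 21.2%, and 16.3% and 14.9% in these comparisons. The block ended the calls of Hmgcs1 (0.066) and Fdft1 (0.0641) in bone-marrow macrophages against wild type, of Npc2 in repopulating against bone-marrow cells (0.05005) and of Mid1ip1 in repopulating against wild-type microglia (0.0508), and brought calls of Acsl5 in bone-marrow macrophages (0.0408) and of Fasn in repopulating microglia against bone-marrow macrophages (0.041), all adjusted p. Depth limits Fads2, Elovl6 and Scd1, which had few reads in microglia.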
